A study of Homo sapiens with 15 samples.

Results

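The replication-dependent histone genes were followed across 5 states of KPL4, an established human breast adenocarcinoma line with amplified HER2. A row of the gene table counted as a member where its identifier mapped to a protein-coding symbol that began with H2AC, H2BC, H3C or H4C and a digit, or was one of H1-1 to H1-6. This gave 70 members of 60664 entries, with 6 genes for the linker histone H1 and 17, 19, 13 and 15 genes for the core histones H2A, H2B, H3 and H4. In position, 55 lay in the large cluster on chromosome 6p22, 11 on 1q21 and 2 on 1q42, while H4C16 lay on chromosome 12 and H2BC12L on chromosome 21. The low-count filter kept 61 members. The 9 others, H1-1, H1-6, H2AC1, H2BC1, H2BC12L, H3C8, H4C4, H4C6 and H4C7, had 0 to 84 reads over all 15 libraries and are not described further.

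The study made stranded total RNA libraries, depleted of ribosomal RNA, from 5 groups of 3. Control cells had endogenous estrogen receptor β (ERβ, the product of ESR2) and knockout cells had none. Add-back cells were made by transfecting knockout cells with exogenous ERβ. All 3 grew in Ham's F12 medium with 7% fetal bovine serum, insulin and hydrocortisone. For the remaining groups, add-back cells spent 72 h without phenol red, in 1% serum stripped with dextran-coated charcoal, before 24 h with DMSO alone (vehicle) or with the ERβ agonist LY500307 at 200 nM in the same medium. Both groups thus carried the knockout and the exogenous receptor. The labels do not say whether the knockout was 1 clone, which site was edited, what drives the exogenous ERβ, or whether the libraries of a group came from separate cultures, so p-values measure only the spread between these libraries.

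Replication-dependent histone genes are transcribed mainly in S phase, when new DNA has to be packed into nucleosomes. Their mRNAs usually end in a conserved stem-loop in place of a poly(A) tail, which the stem-loop binding protein SLBP holds and the U7 snRNP helps to cut. Because these mRNAs lack the tail, libraries selected on poly(A) miss most of them, whereas total RNA libraries as used here hold them. Each histone is encoded by many genes whose proteins are the same or nearly so, and their short, GC-rich coding sequences resemble each other.

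The stem-loop itself, 16 bases long, was found in GENCODE 29 transcripts of 27 members, in 5 spellings. The annotated transcripts of 34 members end at the stop codon, so for those the search had nothing to read. The commonest spelling was found in 17 genes of the H2A, H2B and H3 families, another in 5 H4 genes, and one more in H4C14, H4C15 and H4C9. The examples below are shown because they give the 3 common spellings and the single case of H3C6. Capitals mark the stem-loop and lower case the 5 bases on each side. The genes lie, in GRCh38, at chr6:26251651-26253710 (H2BC9, + strand), chr6:26277609-26285638 (H4C8, - strand), chr1:149832659-149839767 (H4C14, + strand) and chr6:26224199-26227473 (H3C6, + strand).
H2BC9: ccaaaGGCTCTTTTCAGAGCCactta
H4C8: ccaaaGGCCCTTTTCAGGGCCgccca
H4C14: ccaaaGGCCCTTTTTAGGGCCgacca
H3C6: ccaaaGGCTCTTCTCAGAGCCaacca

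RefSeq promoter entries (GRCh38.p14) were found for 64 members, in 68 entries, and the 250 bases before the start were searched on both strands. The letters TATAAA, the core of a TATA box, stood in 66.2% of the histone entries against 10.7% of all 35116 promoters. CCAAT stood in 85.3% against 32.0%, in every entry of the H1, H2A, H2B and H3 families but in only 3 of 13 for H4. The octamer ATTTGCAT, which POU2F1 (OCT1) binds in H2B promoters, stood in 39.7% against 1.63%, in 15 of 20 H2B and 11 of 16 H2A entries. The 3 promoters below are shown with these matches, on either strand, in capitals. H2BC12, an abundant member, has all 3 motifs; H4C12 and H4C2 both have TATAAA and neither of the others, and their mRNAs differed in behaviour, as given further on. They are the 250 bases before the start of H2BC12 (chr6:27146859-27147108), H4C12 (chr6:27831561-27831810) and H4C2 (chr6:26027284-26027533), all on the - strand.
H2BC12: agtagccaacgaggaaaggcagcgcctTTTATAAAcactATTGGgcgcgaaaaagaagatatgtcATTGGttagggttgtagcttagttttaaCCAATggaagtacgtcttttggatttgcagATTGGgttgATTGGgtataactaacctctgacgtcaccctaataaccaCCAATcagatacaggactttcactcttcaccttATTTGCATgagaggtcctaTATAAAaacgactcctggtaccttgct
H4C12: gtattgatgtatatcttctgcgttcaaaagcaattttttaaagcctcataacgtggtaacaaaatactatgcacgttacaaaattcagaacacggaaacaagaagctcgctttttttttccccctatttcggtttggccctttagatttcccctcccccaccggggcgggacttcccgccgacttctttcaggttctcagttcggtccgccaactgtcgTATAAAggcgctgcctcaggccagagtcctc
H4C2: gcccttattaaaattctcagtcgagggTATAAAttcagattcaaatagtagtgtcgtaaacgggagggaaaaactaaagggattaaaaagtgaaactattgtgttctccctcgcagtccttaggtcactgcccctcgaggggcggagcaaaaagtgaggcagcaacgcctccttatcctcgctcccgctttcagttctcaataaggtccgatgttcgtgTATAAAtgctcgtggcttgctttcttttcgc

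Libraries held 12614050 to 19390386 expected counts (RSEM's estimate of reads per gene), and the 70 members took 0.325% to 0.561% of them. Levels are CPM (read counts scaled to a common library size) with TMM scaling, which adjusts library totals so that most genes stay level. Genes were tested with edgeR's quasi-likelihood test over 19516 genes, and a gene is said to rise or fall at a Benjamini-Hochberg adjusted p under 0.05. ESR2 ran from 4.79 to 6.44 CPM in control, 3.04 to 5.77 in knockout and 30.6 to 34.1 in add-back cells. Its log2 fold change in the knockout was -0.38 ± 0.17 (SE; edgeR adjusted p = 0.0796), and an RNA level does not show whether the edited gene makes protein. ERBB2 (HER2) ran from 3411 to 6328 CPM over all libraries. The 12 markers of immune, endothelial and fibroblast cells summed to 5.81 to 22.6 CPM, with 3 of them at 0 in at least 10 libraries; the sum was 5.81 to 8.71 in control, 9.25 to 9.89 in knockout, 8.18 to 9.0 in add-back, 19.6 to 20.4 in vehicle and 21.2 to 22.6 in LY500307 libraries, and its part in the histone differences was not tested.

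Because histone genes are GC-rich and short, every comparison was also fitted with offsets that remove each library's trend on GC content and transcript length over all genes. Counts are without offsets unless the offsets are named, and both are given for each comparison as a whole. Reads were moreover split between near-identical copies: 33 of the 61 members tested had fractional counts. The median identity between same-length coding sequences was 85.6% for H2A, 90.2% for H2B, 85.3% for H3 and 83.8% for H4. The closest copy was often nearer than that, and 11 members had a copy over 95% identical. Among them, H3C13 was 97.1% identical to H3C14, and H2BC12 98.9% to H2BC12L. How well single reads could be told apart was not tested. Only 4 pairs were identical over the whole coding sequence, H2AC18 with H2AC19, H3C14 with H3C15, H4C11 with H4C12, and H4C14 with H4C15, and these are best read as sums. Another gene overlapped 15 of the 61 members tested. Among them were H2AC15, H2AC21, H2BC5, H2BC6, H2BC15, H2BC18, H3C4, H3C12 and H4C14, which are described below. The use of strand in counting is not given in the sources used here, so their counts may hold reads of a neighbour.

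Summed over all 70 members, histone mRNA was lowest in control and vehicle cells and highest in add-back cells. The sum was 3734, 3741 and 3536 CPM in control, 4423, 5106 and 5445 in knockout and 5403, 5494 and 5195 in add-back libraries. It was 3573, 3368 and 3985 CPM in vehicle and 4409, 4415 and 4310 in LY500307 libraries. Knockout and control did not overlap, nor did LY500307 and vehicle, nor add-back and vehicle, whereas knockout and add-back did. The ratio of means was 1.36 for knockout to control, 1.07 for add-back to knockout, 1.2 for LY500307 to vehicle and 0.679 for vehicle to add-back. In bulk RNA, more cells in S phase and more histone mRNA per cell cannot be told apart. Knockout replicate 1 was the lowest of its group and vehicle replicate 3 the highest of its group, and many single members repeated this.

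**Figure D1:**
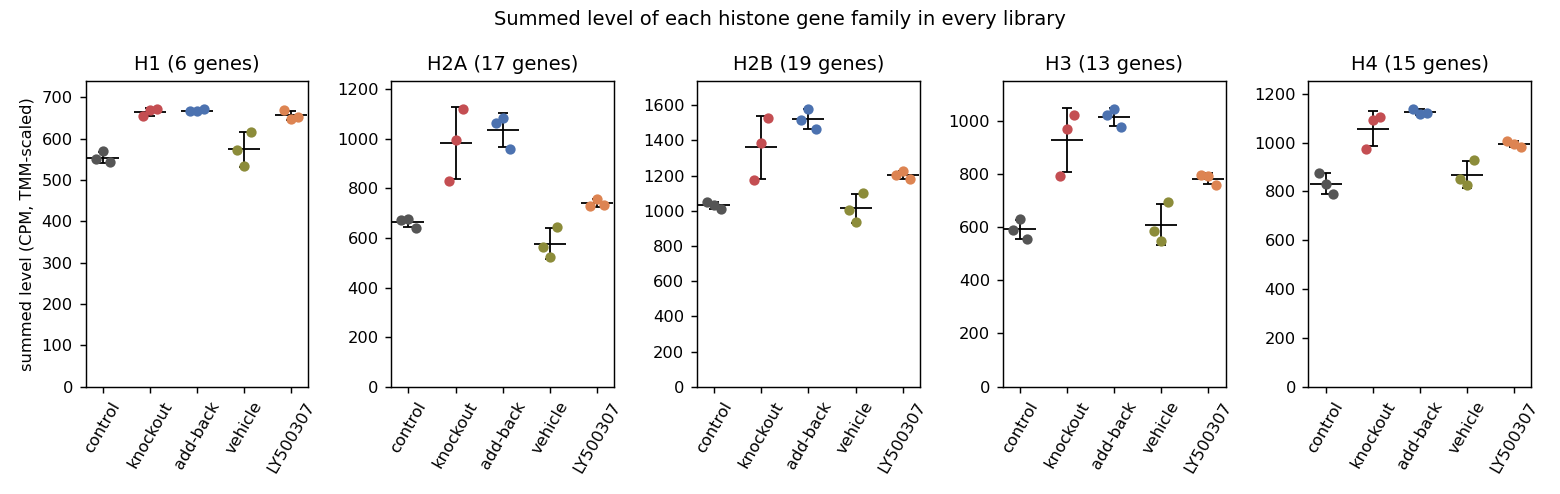
Summed level (CPM with TMM scaling, axes from 0) of the genes of each histone family, 1 point per library, with the mean and SD of the 3 libraries of a group. All 5 families were higher in knockout and add-back than in control libraries, and the H1 sum moved least.

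By family, the ratio of knockout to control sums was 1.57 for H3, 1.48 for H2A, 1.32 for H2B, 1.27 for H4 and 1.2 for the linker histone H1, as the plot of family sums shows. H3 sums were 588, 629.6 and 555 CPM in control and 791, 968 and 1020.2 in knockout libraries. H1 sums were 550.1, 569 and 543 CPM in control and 654, 669 and 672 in knockout libraries. In all 5 families the 3 knockout libraries lay above the 3 control libraries. Over the 61 tested members, the group with the highest mean was add-back for 35, knockout for 12, LY500307 for 9, control for 4 and vehicle for 1. The lowest mean fell in control for 29 and in vehicle for 26.

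Members were ranked by level per length, each on its own, with identical copies not added up. Per kilobase of coding sequence, over all 15 libraries, H4C14 stood highest at 695 CPM on average, followed by H2BC12 (464), H2BC18 (442), H4C8 (426), H1-5 (365), H3C2 (334), H2BC4 (322) and H4C16 (316), level with H4C12 (316), a partner in an identical pair. Copies of an identical pair stand lower singly than their sum would. This holds for H2AC18 (257) with H2AC19 (238), H4C11 (171) with H4C12, and H3C14 (176) with H3C15 (201). Among single members, H4C14 led in each of the 5 groups, and the order of the others differed between groups. The lowest of the tested members, H3C12, stood at 3.35 CPM per kilobase. These genes did not move alike, as the comparisons below show.

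Loss of ERβ went with more histone mRNA. Against control, 43 of the 61 members rose in knockout cells, where 23.4% of all genes rose, and 2 fell, where 22.6% of all genes fell. The median log2 fold change was 0.60 over the members and -0.00 over all genes tested, with members from -0.20 to 1.83. With GC and length offsets 45 rose (21.6% of all genes) and 1 fell (19.8%), with a median of 0.52, and 40 of the members that rose were the same in both fits. More members fell with an offset for GC alone or for coding GC, as given at the end.

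The H2A and H2B genes, which encode the dimer that sits on the outside of the nucleosome core, rose in 12 of 16 and 12 of 17 tested members without offsets, and none fell. With offsets 13 H2A and 13 H2B genes rose, and 1 H2A gene fell, H2AC18 (-0.45; edgeR adjusted p = 0.000421), a partner in an identical pair. H2AC15 was at 6.74, 7.57 and 6.32 CPM in control and 14.5, 22.3 and 21.3 in knockout libraries, a log2 fold change of 1.5 ± 0.17 (SE; edgeR adjusted p = 6.12e-07). H2AC25, on 1q42, was at 5.38, 5.21 and 5.75 CPM in control and 10.9, 13.8 and 16.3 in knockout libraries (1.33 ± 0.13). In both genes every knockout library lay above every control library. H2BC4 had 89.4, 82.9 and 82.3 CPM in control and 107, 135 and 150.2 in knockout libraries, with no overlap (0.62 ± 0.10). The more abundant H2BC12 changed less: it had 167, 174 and 164 CPM in control and 167, 204 and 217 in knockout libraries, which overlapped. Its log2 fold change of 0.22 ± 0.07 (edgeR adjusted p = 0.0125) was 0.06 with the offsets (adjusted p = 0.417) and -0.11 with an offset for GC alone.

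H3 genes rose in 10 of 12 tested members, and in 9 with offsets. H3C4 moved from 46.2, 50.9 and 45.8 CPM in control to 85, 92.9 and 91.9 in knockout libraries, a log2 fold change of 0.92 ± 0.07 (edgeR adjusted p = 5.6e-09). H3C13 has a coding GC content of 67.9% and a coding sequence 97.1% identical to that of H3C14, so it may share reads. It moved from 15.1, 19.1 and 12.9 CPM to 28.5, 40.1 and 47.0 (1.31 ± 0.18). For both genes the groups were apart, but the value for H3C13 was 0.65 with the offsets (edgeR adjusted p = 3.37e-05). H3C12 gave one of the largest ratios from very few reads, with 0.606, 0.929 and 0.379 CPM in control and 1.5, 1.52 and 2.45 in knockout libraries (1.54 ± 0.32). H3C2, among the most abundant H3 genes, moved from 122, 109 and 115 CPM to 130.1, 148 and 161, without overlap (0.35 ± 0.06).

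In the H4 family 6 of 12 tested members rose and 2 fell without offsets, and 8 rose and none fell with them. H4C14, the highest member per length, was at 181, 185 and 169 CPM in control and 226, 269 and 265 in knockout libraries, with no overlap and a log2 fold change of 0.51 ± 0.07 (edgeR adjusted p = 3.88e-06). H4C16, which stands alone on chromosome 12, was at 89.8, 78.9 and 81.8 CPM in control and 99.6, 100.3 and 107 in knockout libraries (0.29 ± 0.05). H4C3 fell, from 83.1, 75.4 and 75.3 CPM to 69.3, 69.6 and 69.7 (-0.16 ± 0.04), and H4C5 fell, from 86.9, 85.5 and 88.7 to 80.9, 67.0 and 83.9 (-0.17 ± 0.06). Neither fall held with the offsets, at 0.04 and -0.04. H4C8 (0.05 ± 0.06) and H4C2 (0.00 ± 0.05) did not pass the test without offsets and did with them, at 0.22 (edgeR adjusted p = 0.018) and 0.13 (adjusted p = 0.0206). Members with the same stem-loop spelling were found on both sides: without offsets H4C16 rose, while H4C2, H4C5 and H4C8 did not.

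Linker histone H1 genes, whose product seals the nucleosome's entry site, rose in 3 of 4 tested members, and in 2 with offsets. H1-3 rose from 81.4, 79.0 and 76.0 CPM in control to 122, 121 and 121 in knockout libraries, a log2 fold change of 0.62 ± 0.05 (edgeR adjusted p = 1.54e-09) that was 0.67 with the offsets. H1-2 was at 179, 183 and 179.5 CPM in control and 191, 181 and 182 in knockout libraries, and the groups overlapped (0.04 ± 0.04; adjusted p = 0.451). H1-5 rose from 222, 225 and 217 CPM to 251, 261 and 258 without overlap (0.21 ± 0.04), but its value was 0.07 with the offsets (adjusted p = 0.092).

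**Figure D2:**
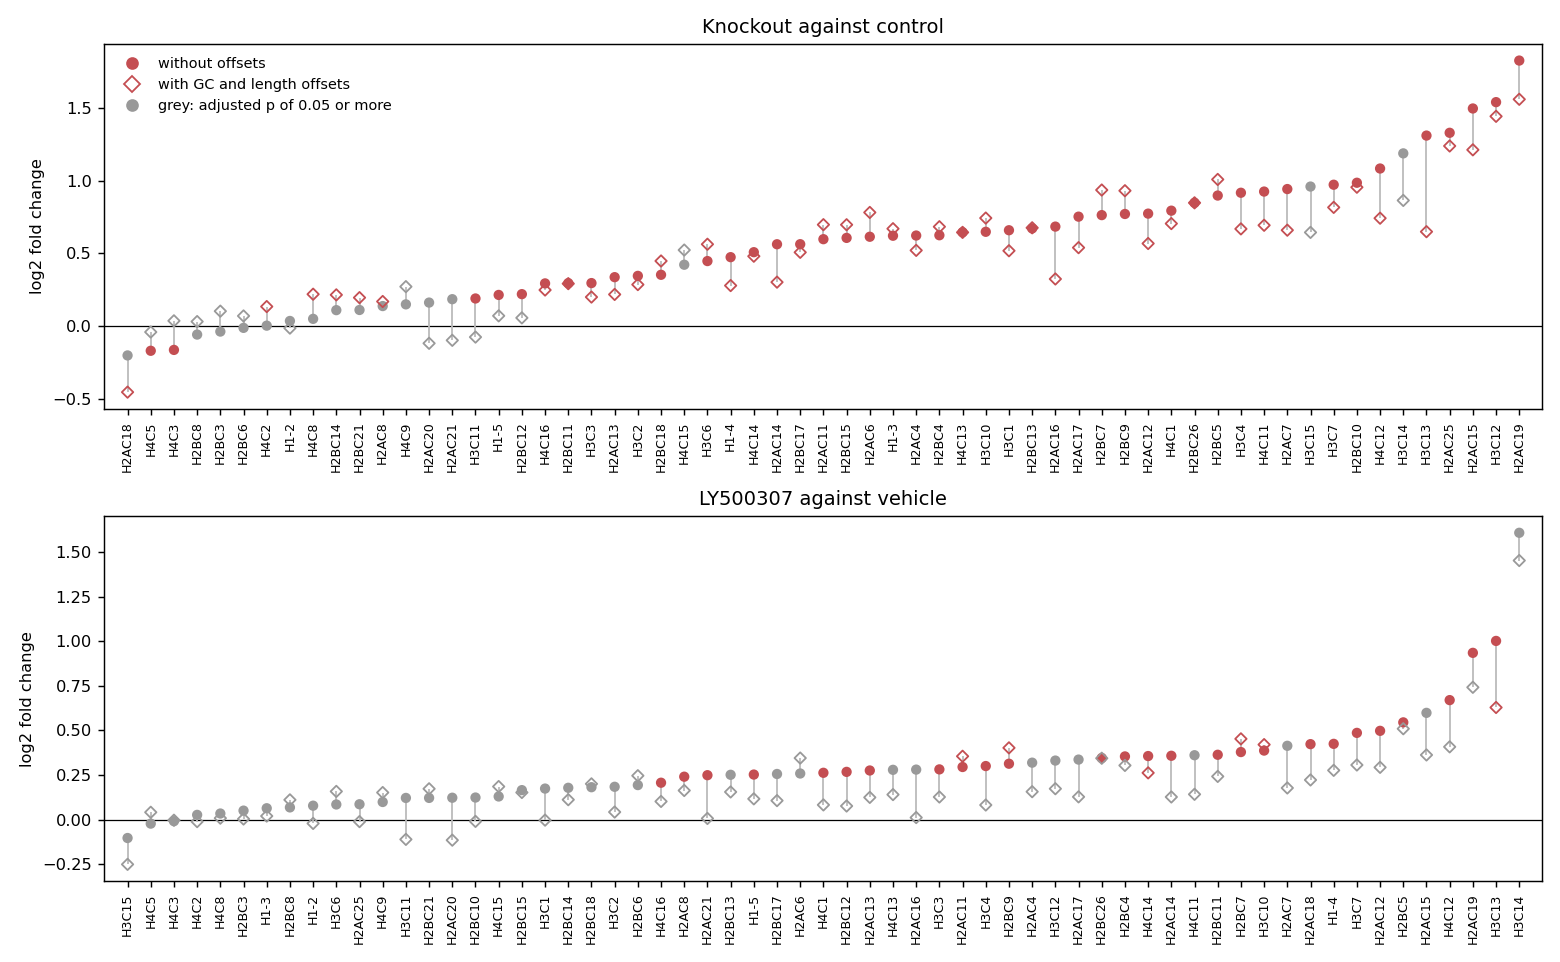
Log2 fold change of each of the 61 tested members, in order of the fit without offsets (filled circles), with the value from the fit with GC and length offsets (open diamonds); red marks an edgeR adjusted p under 0.05 and grey the rest. Most members stayed red under both fits in knockout against control (43 and 45 higher), whereas LY500307 against vehicle went from 26 higher to 6.

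By cluster, on 6p22 36 of 47 tested members rose and 2 fell in the knockout (median log2 fold change 0.61), and 37 rose and none fell with offsets. On 1q21, 4 of 11 rose and none fell, with a median of 0.42; with offsets 5 rose and 1 fell, and this cluster holds 3 of the 4 identical pairs. The difference between the clusters was not tested.

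Identical copies had to be added up before they could be read, as the plot of paired copies shows. H3C14 was at 51.2, 59.0 and 0.885 CPM in control and 4.06, 116 and 126 in knockout libraries, and H3C15 at 51.2, 59.0 and 86.2 and then 142, 116 and 126. Singly neither passed the test (edgeR adjusted p = 0.405 and 0.227), and the share given to each copy differed widely between libraries of 1 group. Their sum was 102, 118 and 87.1 CPM in control and 146, 232 and 252 in knockout libraries, with no overlap. In a fit that counted each identical pair as 1 gene, chosen after seeing the data, the log2 fold change of this sum was 1.04 ± 0.17 (edgeR adjusted p = 4.58e-05).

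For H2AC18 and H2AC19 the split went between groups. H2AC19 gave the largest rise of all members, from 45.2, 48.6 and 35.2 CPM in control to 89.5, 173 and 193 in knockout libraries (1.83 ± 0.25; edgeR adjusted p = 5.12e-06). H2AC18, with the same coding sequence, went from 117, 135 and 119 CPM to 125, 93.9 and 103 (-0.20 ± 0.09; adjusted p = 0.0809). Their sum rose from 162, 183 and 155 CPM to 214, 267 and 296, which is 0.64 ± 0.11 on the log2 scale (adjusted p = 6.54e-05). The sum of H4C11 and H4C12 rose by 1.02 ± 0.17 (adjusted p = 6.34e-05), from 104, 90.1 and 81.3 CPM to 122, 207 and 230.1. The sum of H4C14 and H4C15 rose by 0.50 ± 0.07 (adjusted p = 9.51e-06). All 4 sums also passed with GC and length offsets, at 0.38, 0.72, 0.79 and 0.47 in the order H2AC18 with H2AC19, H3C14 with H3C15, H4C11 with H4C12, and H4C14 with H4C15. Counted so, 43 of 57 members or sums rose and 2 fell.

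**Figure D3:**
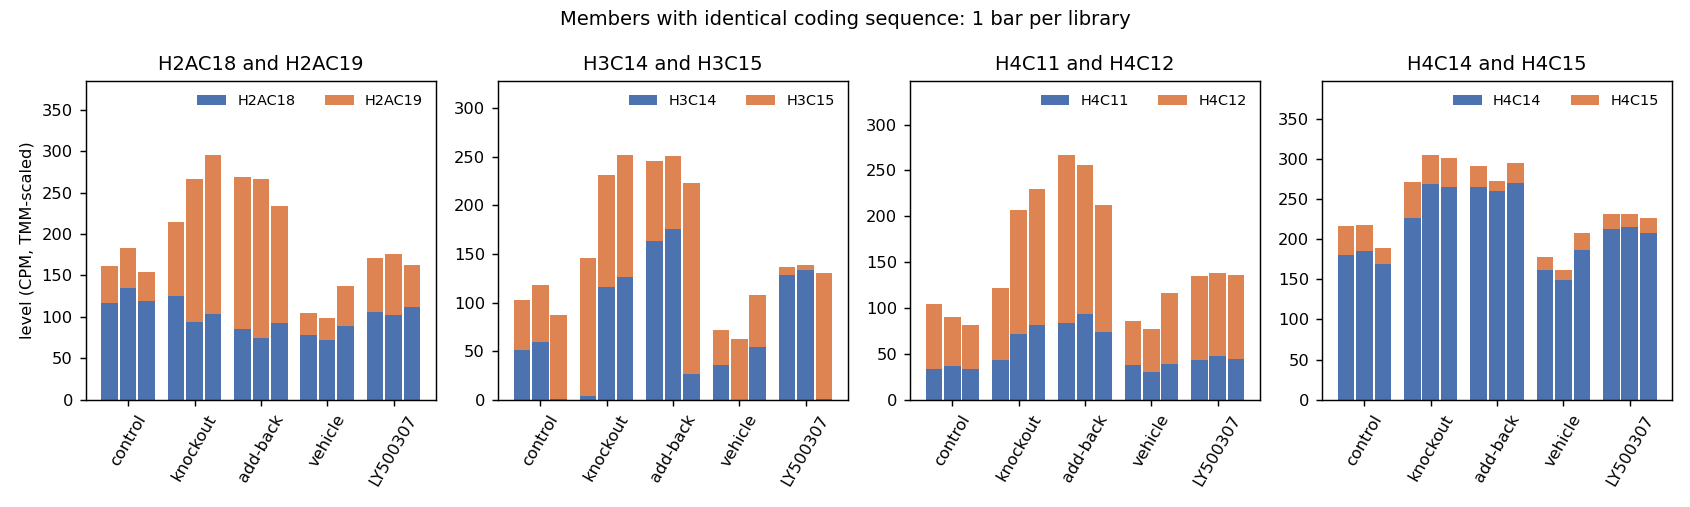
Level (CPM with TMM scaling, bars from 0) of the 4 pairs of members with identical coding sequence, 1 stacked bar per library and 3 bars per group, with the 2 partners in different colours. The share given to each partner of H3C14 and H3C15 jumps between libraries of 1 group, while their sums are steadier: 102, 118 and 87.1 CPM in control and 146, 232 and 252 in knockout libraries.

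Putting ERβ back did not return histone mRNA to the control level. Against knockout, 9 of 61 members rose in add-back cells (10.4% of all genes rose) and 4 fell (9.19% of all genes), shares near those of all genes, with a median log2 fold change of 0.10. With offsets 14 rose (11.9% of all genes) and 4 fell (10.4%). Of the risers, H2AC21 had 21.9, 26.0 and 27.1 CPM in knockout and 33.3, 33.9 and 29.8 in add-back libraries, with no overlap (0.37 ± 0.07; edgeR adjusted p = 0.000816). H2BC4 went from 107, 135 and 150.2 to 158, 175 and 163 CPM (0.34 ± 0.10), H3C4 from 85, 92.9 and 91.9 to 111, 117 and 109 (0.32 ± 0.07), and H2BC26, on 1q42 beside H2AC25, from 33.7, 41.6 and 47.6 to 52.2, 53.9 and 47.7 (0.32 ± 0.09). These 4 moved further from control, not back to it. The count of risers depended on single libraries: it was 4 without knockout replicate 1, 21 without knockout replicate 3 and 3 without add-back replicate 2.

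Of the 4 that fell on add-back, H1-2 and H4C2 ended below control. H1-2 was at 151, 153 and 161 CPM in add-back libraries, below all 3 knockout and all 3 control libraries, a change of -0.25 ± 0.04 against knockout (edgeR adjusted p = 4.03e-05). H4C2 was at 100.2, 96.4 and 90.7 CPM in knockout and 80.4, 79.3 and 83.4 in add-back libraries, with no overlap (-0.24 ± 0.05). The others, H2AC18 (-0.35 ± 0.09) and H4C15 (-0.91 ± 0.22), are partners in identical pairs, and the sums of those pairs did not pass the test: -0.01 ± 0.11 (adjusted p = 0.950) and -0.03 ± 0.07 (adjusted p = 0.800). With the pairs summed, 2 of 57 fell.

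Set against control directly, which shares its libraries with the comparisons above, add-back cells had 46 of 61 members higher (23.2% of all genes) and 5 lower (22.7%), with a median log2 fold change of 0.66. With offsets 46 were higher (22.1% of all genes) and 3 lower (20.1%). The largest differences were H2AC19 (2.01 ± 0.24), H3C13 (1.57 ± 0.17), H3C12 (1.54 ± 0.32) and H4C12 (1.51 ± 0.20). Among the lower ones, H1-2 differed by -0.22 ± 0.04 and H4C2 by -0.24 ± 0.05 (edgeR adjusted p = 5.3e-05 and 0.000322), and H2AC18, again with its copy at a higher level, by -0.56 ± 0.09. H2BC6 (-0.85 ± 0.32; adjusted p = 0.0366) rested on 2.50, 3.07 and 2.34 CPM in control and 1.62, 1.99 and 0.703 in add-back libraries.

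The agonist LY500307 went with slightly higher histone mRNA than vehicle, and 6 of the rises of single members held with the offsets. Without offsets 26 of 61 members rose, where 4.77% of all genes rose, and none fell, where 2.35% of all genes fell. The median log2 fold change was 0.26, against -0.02 over all genes. Of the members, 58 had a positive value, and 41 did not overlap between the groups in the higher direction (12.5% of all genes). With GC and length offsets 6 of 61 rose (1.26% of all genes) and none fell (0.502%), with a median of 0.15.

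The 6 that rose in both fits were H3C13, H4C14, H2BC9, H2BC7, H3C10 and H2AC11. H3C13 moved from 9.60, 8.76 and 16.3 CPM in vehicle to 23.4, 23.1 and 21.7 in LY500307 libraries, a log2 fold change of 1.00 ± 0.19 (edgeR adjusted p = 0.00529) that was 0.63 with the offsets (adjusted p = 0.00534). H4C14 moved from 161, 149 and 187 CPM to 213, 215 and 208 (0.36 ± 0.07), and with offsets by 0.26 (adjusted p = 0.0258). Summed with its identical copy H4C15, however, it did not pass with offsets (edgeR adjusted p = 0.05002). H2BC9, whose stem-loop is printed above, moved from 69.8, 61.2 and 79.0 CPM to 87.9, 84.7 and 87.5 (0.31 ± 0.07), and with offsets by 0.40 (adjusted p = 0.0118). In all 3 genes each LY500307 library lay above each vehicle library, and vehicle replicate 3 was the nearest. H2BC7 (0.38 ± 0.09), H3C10 (0.39 ± 0.09) and H2AC11 (0.29 ± 0.08) had values of 0.45, 0.42 and 0.36 with the offsets (adjusted p = 0.0176, 0.0263 and 0.0457). The offsets used the GC content of the whole annotated transcript. For H2BC9, H2BC7, H2AC11 and H3C10 this was 41.6%, 42.7%, 46.8% and 49.1%, against 58.7%, 58.7%, 64.1% and 63.7% in the coding sequence. For these genes the offsets therefore did not address the GC content of the coding sequence.

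Larger rises that did not pass with the offsets were H2AC19 (0.94 ± 0.26; edgeR adjusted p = 0.0343, and 0.121 with offsets), H4C12 (0.67 ± 0.20; 0.049 and 0.226) and H2BC5 (0.55 ± 0.13; 0.0163 and 0.0528). H2BC5 had 46.6, 41.5 and 56.5 CPM in vehicle and 72.9, 72.3 and 65.0 in LY500307 libraries, which did not overlap. Summed over their identical copies, H2AC18 with H2AC19 rose by 0.59 ± 0.11 and H3C14 with H3C15 by 0.75 ± 0.17, and both also passed with offsets (adjusted p = 0.00992 and 0.0401). The sum of H4C14 and H4C15 rose by 0.34 ± 0.07 (edgeR adjusted p = 0.00786) but did not pass with offsets (adjusted p = 0.05002). The sum of H4C11 and H4C12 (0.56 ± 0.17) passed in neither fit (adjusted p = 0.0547, and 0.269 with offsets). Among members whose LY500307 and vehicle libraries overlapped were H4C2 (0.03 ± 0.05), H4C3 (-0.01 ± 0.04) and H4C8 (0.03 ± 0.06), none of which passed the test. The count of 26 rested on single libraries: it was 3 without vehicle replicate 1, 2 without vehicle replicate 2, 32 without vehicle replicate 3, and 8 without LY500307 replicate 1 or 2.

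Vehicle cells, in depleted medium, had less histone mRNA than add-back cells in full medium. Medium, serum, DMSO and time differed together between these groups and cannot be told apart. Of 61 members, 44 were lower (21.6% of all genes) and 3 higher (26.4%), with a median log2 fold change of -0.57. With offsets 30 were lower (23.1% of all genes) and 9 higher (20.5%), with a median of -0.26, and 29 were lower in both fits. Without offsets 15 of 16 H2A genes were lower and none higher, and with them 11 were lower and 1 higher, H2AC18 (0.44; edgeR adjusted p = 0.000803). H2AC15 was at 18.4, 18.9 and 15.3 CPM in add-back and 5.09, 4.32 and 7.49 in vehicle libraries (-1.66 ± 0.17; edgeR adjusted p = 1.72e-07), and H3C13 at 47.2, 48.2 and 43.5 and then 9.60, 8.76 and 16.3 (-2.03 ± 0.18). Neither gene overlapped between the groups, and with offsets the values were -1.07 and -1.05. H2AC19 fell by 2.39 ± 0.25 and H4C12 by 1.5 ± 0.20, and the sums with their identical copies fell by 1.19 ± 0.11 and 1.41 ± 0.17. The 3 members that were higher without offsets were H4C8 (0.22 ± 0.06), H4C2 (0.22 ± 0.05) and H4C3 (0.11 ± 0.04), H4 genes of low coding GC content. This count was 1 without add-back replicate 1 or vehicle replicate 2, and 2 without any 1 of the other 4 libraries. The 9 that were higher with offsets came from every family: 3 from H4, 2 each from H1 and H3, and 1 each from H2A and H2B.

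GC content sorted the members among themselves. Coding GC content of the tested members ran from 54.4% to 67.9% with a median of 61.2%. Across the 61 members, it had a Pearson correlation with the log2 fold change of 0.51 in knockout against control, 0.07 in add-back against knockout, 0.48 in LY500307 against vehicle and -0.66 in vehicle against add-back. The members share libraries and base composition, so these values are a description. LY500307 against vehicle and vehicle against add-back also share the vehicle libraries, on opposite sides, so their opposite correlations are not independent. With the offsets the correlations were 0.27, 0.03, 0.32 and -0.49. Across 19034 other genes, the correlation with transcript GC content was 0.29, 0.01, 0.31 and -0.34, and in knockout against control the 20% of genes with the highest GC had a median log2 fold change of 0.37 against -0.13 in the 20% with the lowest.

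Only 9 tested members had a coding GC content under 58%: H1-2, H1-3, H2BC3, H2BC8, H2BC14, H4C2, H4C3, H4C5 and H4C8. Their median log2 fold change in knockout against control was 0.00 without offsets, with single values from -0.17 to 0.62. H1-3 was the 1 that rose, and H4C3 and H4C5 the 2 that fell. The 28 members from 58% to 62% had a median of 0.54, and the 24 members of 62% or more a median of 0.72, with 18 higher and none lower. In vehicle against add-back the medians of these 3 ranges were 0.08, -0.49 and -0.90. The same order held for LY500307 against vehicle, at 0.05, 0.26 and 0.32. What part base composition had in the histone differences was tested only through the offsets above.

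**Figure D4:**
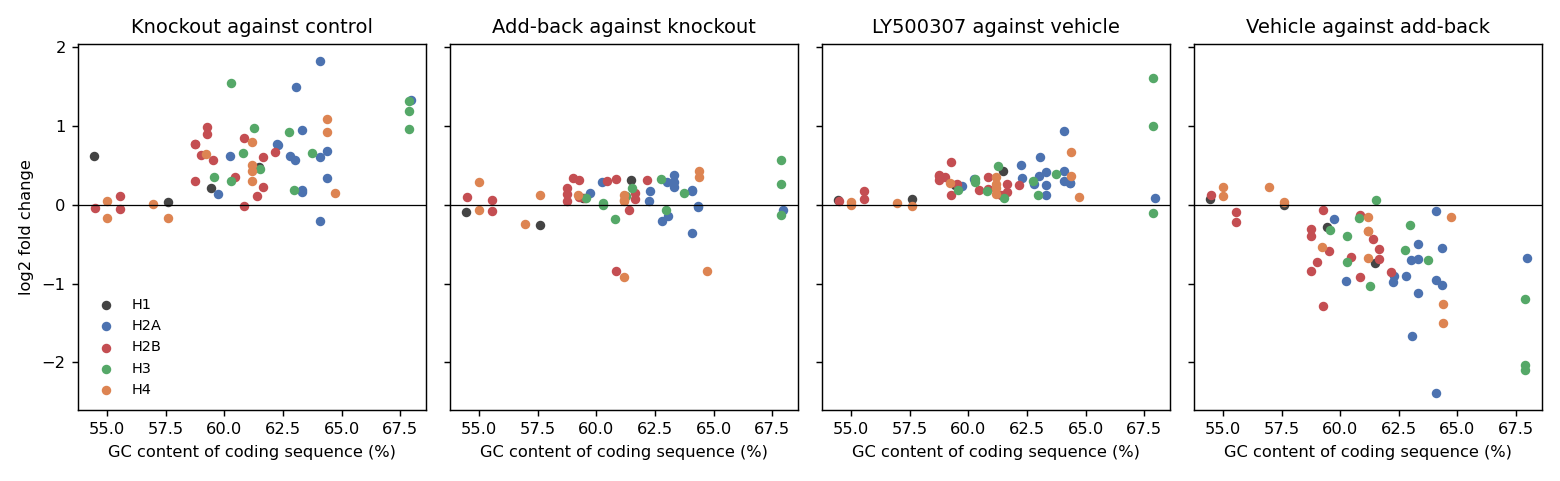
GC content of the coding sequence (x axis, percent) against the log2 fold change without offsets (y axis) for the 61 tested members in 4 comparisons, coloured by histone family. Members of higher GC content lay higher in knockout against control (r = 0.51) and LY500307 against vehicle (r = 0.48), lower in vehicle against add-back (r = -0.66), and showed little relation in add-back against knockout (r = 0.07). Comparisons that share a group, such as vehicle, are not independent.

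Where a histone gene also makes a spliced transcript, the 1-exon and the spliced form often differed. The deposited transcript table held both kinds at 1 CPM or more on average for 10 members. Summed over these genes, 1-exon transcripts were at 548, 526 and 487 CPM in control, 663, 790 and 843 in knockout and 897, 911 and 885 in add-back libraries. Spliced transcripts were at 247, 233 and 250.2 CPM in control, 252, 270.1 and 256 in knockout and 234, 243 and 227 in add-back libraries. The 1-exon sum was 1.47 times control in the knockout, with no overlap, and the spliced sum 1.07 times. H2BC18 alone gave 129 of the 243 CPM of the mean spliced sum in control. The spliced ratio was the larger in H4C16 (1.44 against 1.19) and H4C15 (1.34 against 0.896), and the 1-exon ratio in the other members. The 1-exon form of H4C15 had a mean of only 0.843 CPM in control. In LY500307 against vehicle the ratios of the 1-exon and spliced sums were 1.23 and 1.07, and in vehicle against add-back 0.641 and 0.880.

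H2BC18 showed such a gap in knockout against control. Its 1-exon transcript, which holds the stem-loop, was at 17.3, 19.4 and 19.6 CPM in control, 33.5, 59.4 and 97.1 in knockout and 96.7, 102 and 74.3 in add-back libraries, and at 17.0, 13.9 and 22.5 in vehicle libraries. Its spliced transcripts were at 131, 125 and 132 CPM in control, 124, 131 and 122 in knockout and 139, 149.5 and 139 in add-back libraries. So the 1-exon form was 3.38 times control in the knockout while the spliced forms were 0.972 times, and the gene total hid most of this (log2 fold change 0.35 ± 0.08; edgeR adjusted p = 0.0013). H2BC5 behaved alike. Its 1-exon transcript was at 40.5, 41.4 and 31.6 CPM in control and 60.8, 87.9 and 101 in knockout libraries. Its spliced transcript was at 13.8, 9.83 and 14.4 CPM and then 9.86, 9.70 and 12.2. In H2BC15, however, the spliced form also had higher means, 20.8 ± 0.77 CPM in control and 27.7 ± 4.31 in knockout cells (SD, n = 3), beside 3.03 ± 0.93 and 8.53 ± 4.31 for the 1-exon form. Transcripts of 1 gene share most of their sequence, so the split between them is RSEM's estimate, and no test was run on it.

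**Figure D5:**
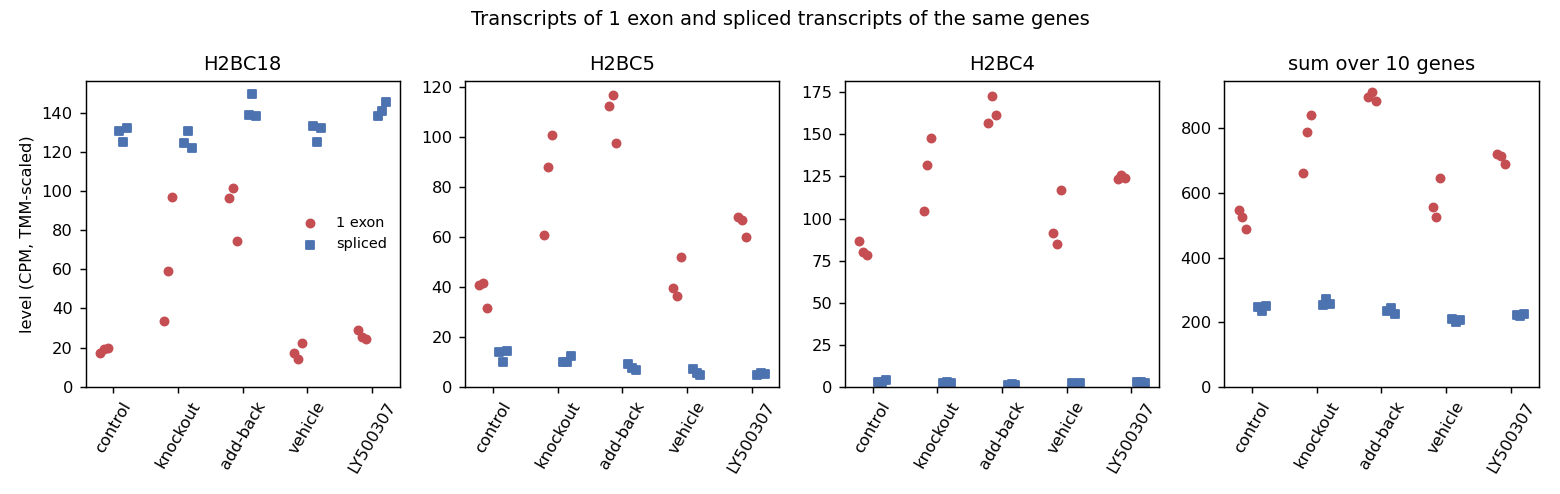
Level (CPM with TMM scaling, axes from 0) of 1-exon transcripts (red circles) and spliced transcripts (blue squares) of H2BC18, H2BC5, H2BC4 and of the sum over the 10 members with both kinds, 1 point per library. In the sum, 1-exon transcripts ran from 487 to 911 CPM while spliced ones stayed between 201 and 270.1 CPM.

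Histone variants counted as replication-independent, made mainly from polyadenylated mRNAs, gave a comparison within the same protein families. Of 11 such genes, 3 rose and 3 fell in the knockout, shares near those of all genes (23.4% and 22.6%). The median log2 fold change was -0.02. With offsets 3 rose (21.6% of all genes) and none fell (19.8%). The 3 that rose without offsets were H2AJ (1.62 ± 0.08; 32.2, 30.9 and 30.8 CPM in control and 82.0, 96.0 and 110.2 in knockout libraries), H1-10 (0.80 ± 0.13) and H2AX (0.78 ± 0.11). With offsets H2AJ still rose (1.26; edgeR adjusted p = 1.15e-12), while H1-10 and H2AX did not pass (adjusted p = 0.291 and 0.437). The replication-independent H3.3 gene H3-3B had a value of -0.18 and H2AZ1 of -0.10, and both fell without offsets only.

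A list of 16 genes covered histone gene transcription and the processing or turnover of histone mRNA. The list mixes these roles, so a rise in it does not mean more histone mRNA is made. Of the 16, 2 rose (23.4% of all genes) and 3 fell (22.6%) in the knockout. The median log2 fold change was -0.05. With offsets 3 rose (21.6% of all genes) and 5 fell (19.8%). SLBP, the stem-loop binding protein, was at 93.8, 72.9 and 78.3 CPM in control and 65.5, 77.0 and 67.9 in knockout libraries, which overlapped; its log2 fold change of -0.22 passed the test without offsets only. NPAT, the coactivator of histone transcription, was at 53.3, 50 and 52.4 CPM and then 53.6, 53.0 and 57.6 (0.08; edgeR adjusted p = 0.186, and 0.000336 with offsets), and POU2F1, which binds the octamer, fell by 0.33. On add-back 1 of the 16 fell without offsets (9.19% of all genes), CASP8AP2 (-0.20), and none rose (10.4%). With offsets 2 rose (11.9% of all genes) and 2 fell (10.4%). Of 16 histone chaperones, 3 rose (23.4% of all genes) and 8 fell (22.6%) in the knockout. With offsets 4 rose (21.6% of all genes) and 7 fell (19.8%).

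Genes of S phase and DNA replication rose in part in the knockout and fell when ERβ was put back. In the knockout 10 of 26 rose (23.4% of all genes) and 3 fell (22.6%), with a median of 0.10. With offsets 11 rose (21.6% of all genes) and 4 fell (19.8%), with a median of 0.03. Without offsets CDT1 (1.17), which licenses replication origins, and E2F1 (0.63), which drives S-phase genes, gave the largest values. With offsets the largest value in this list was 0.54. In add-back against knockout none of the 26 rose (10.4% of all genes) and 16 fell (9.19%), with a median of -0.20. With offsets 17 fell (10.4% of all genes). Without offsets 9 histone genes rose and 4 fell, with a median of 0.10. MCM3, a subunit of the replicative helicase, was at 173, 174 and 179 CPM in control, 171, 168 and 161 in knockout and 115, 113 and 115 in add-back libraries. All 3 add-back libraries lay below all others of these groups. In LY500307 against vehicle 6 of the 26 rose (4.77% of all genes) and none fell (2.35%), and 3 rose with offsets (1.26%). Of 17 mitotic and G2/M genes, 1 rose (23.4% of all genes) and 14 fell (22.6%) in the knockout. With offsets 2 rose (21.6% of all genes) and 12 fell (19.8%). The share of cells in each phase of the cell cycle was not measured in these libraries.

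Signs of library composition moved too. Of all genes, 23.4% rose and 22.6% fell in the knockout, and 10.4% and 9.19% in add-back against knockout. In LY500307 against vehicle 4.77% rose and 2.35% fell (1.26% and 0.502% with offsets). In vehicle against add-back 26.4% were higher and 21.6% lower (20.5% and 23.1% with offsets). In the knockout, 2 of 32 ribosomal protein genes rose and 21 fell, none of 13 mitochondrially encoded mRNAs rose and 11 fell, and 5 of 12 short RNAs without a poly(A) tail rose while 5 fell. In add-back against knockout, 18 ribosomal protein genes rose and none fell, 1 mitochondrial mRNA rose and 2 fell, and no short RNA passed the test. In LY500307 against vehicle, 6 ribosomal protein genes and 1 short RNA rose and none of the 3 lists had a gene that fell; with offsets none rose, and 1 ribosomal protein gene and 3 short RNAs fell. In vehicle against add-back, 16 ribosomal protein genes were higher and 7 lower, 7 mitochondrial mRNAs higher and 2 lower, and 2 short RNAs higher and 4 lower. With offsets these were 23 and 1, 7 and 4, and 8 and 1. Their part in the histone differences was not tested.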

How the data were processed

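Per the submitters' processing notes, the tools were FastQC, Trim Galore, RSEM and GSNAP and the build was GRCh38; versions, annotation release and strand setting are not given in the sources used here. What the authors deposited were unnormalised expected counts from RSEM, in a gene and a transcript table. Members were found through Ensembl identifiers, and positions, transcripts, GC content and length came from GENCODE 29, with 2 members matched by an older symbol. Members, gene lists, tests and named genes were chosen with earlier results of these data known.

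Expected counts were rounded and tested with edgeR 4.0.16 in R 4.3.3: filterByExpr by group, TMM factors, 1 group-means model of the 15 libraries and the two-sided quasi-likelihood test, with Benjamini-Hochberg adjustment over 19516 genes at 0.05. The biological coefficient of variation was 4.99%. Offsets were natural splines (5 degrees of freedom) of each library's log2 CPM deviation (prior count 2) on the GC content and log2 length of the most abundant transcript, which 97.8% of tested genes had. The procedure was tested on simulated data. Named members were the 8 with the highest CPM per kilobase of coding sequence and, in each comparison, up to 4 rises and 4 falls of largest size among those that passed with groups not overlapping; others named were chosen after their values were seen. Sums of copies and of transcripts carry no p unless fitted with all genes. Samples were grouped by their labels, n = 3 per group. Alternatives were other scalings, filters and tools (DESeq2 1.42.0, limma 3.58.1), offsets, leaving out each library, and a replicate block. Replicate numbers did not pair libraries: 0 of 30 same-number pairs across groups had a residual correlation over 0.1. At these depths a member near 1 CPM has about 12 to 20 reads, which limits its precision.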

Additional observations from a re-analysis of the deposited data

How the results depend on the processing

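Every count of higher or lower members was within 1.5 times its value under DESeq2, limma-voom, RLE factors, upper-quartile factors and a filter at 1 CPM in 3 libraries. The offsets moved more, and the cause was not tested. In knockout against control the falls went from 2 to 5 with a GC offset, 1 with GC and length offsets, 6 with a coding GC offset chosen after seeing the data, and 1 when only the 6 libraries compared were fitted. Rises with LY500307 went from 26 to 7 (GC), 6 (GC and length) and 7 (coding GC), and to 41 without the filter. In add-back against knockout, rises went from 9 to 14 with GC and length offsets and to 25 without the filter, and falls from 4 to 2 with identical copies summed. In add-back against control, falls went from 5 to 3 (GC and length) and 10 (coding GC). In vehicle against add-back, rises went from 3 to 6 (GC), 9 (GC and length) and 6 (coding GC).

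The replicate block alone moved no count by more than 1.5 times (LY500307 rises were 23). Joined with the GC and length offsets, the block gave 1 fall in the knockout, 15 rises on add-back, 5 rises with LY500307, 3 falls in add-back against control and 7 rises in vehicle against add-back. Of the 15 libraries, 5 correlated best with their own number.

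Leaving out 1 library at a time gave these ranges of counts: knockout against control, 41 to 46 rises and 1 to 3 falls; add-back against knockout, 3 to 21 rises and 4 falls throughout; LY500307 against vehicle, 2 to 32 rises and 0 to 1 falls; add-back against control, 46 to 47 rises and 3 to 5 falls; vehicle against add-back, 1 to 2 rises and 40 to 46 falls.

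Some log2 fold changes turned sign. H2BC12 gave -0.107 (GC) and -0.0777 (coding GC) in the knockout and -0.050 and -0.0173 in add-back against control. H1-5 gave -0.00369 (GC) in the knockout and 0.0608 (GC and length) or 0.0604 (with the replicate block) in vehicle against add-back, where H3C2 gave 0.0139 or 0.0143. H4C3 gave 0.0365 in the knockout with GC and length offsets, with or without the block.

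With plain CPM in place of TMM scaling, the H1 sum was 688 CPM in knockout, 684 in add-back and 642 in LY500307 cells, the H2B sum 1179 in LY500307 cells, and the H4 sum 1153 in add-back and 974 in LY500307 cells, each past the spread of its 3 libraries.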
